A study of Canis lupus familiaris with 11 samples.

Results

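The genes described here bind, take up or activate long-chain fatty acids in cells of canine fat. They are FABP3, FABP4 and FABP5 (fatty acid binding proteins), CD36 and SLC27A1 (uptake) and ACSL1 (activation). A gene was measured by the array feature annotated with its symbol alone, and among several by the one with the highest mean over the 8 arrays of dogs 2 and 3. That left 5 of the 6 genes, each with 1 feature, out of 15947 genes on the array, so the choice by level decided nothing among them. FABP4 is listed only on a feature that carries a second gene, and it has no value of its own here. The set was chosen by function and selected on measured values too, since differences of these genes between the company arrays were known when it was drawn up. Those differences are given as a description.

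Stromal vascular fraction (SVF) is the mixture of stromal, vascular and immune cells left when adipose tissue is digested and the floating fat cells are removed. Dogs 2 and 3, each labelled as a German Shepard mix, neutered, male and 10 years old, gave visceral fat digested by 1 company. Their cells were profiled after photo-activated platelet-rich plasma (PRP) and 6 h at 37 °C, or without incubation (SVF), with 2 arrays per dog and condition. PRP and incubation were always given together, so their parts cannot be told apart. A 6 year old neutered male Labrador gave 3 portions of about 20 g of visceral fat, untreated, which companies B, C and A each digested by their own method and froze for about 1 month before thawing, with 1 array each. The labels name no sort for a cell type, and call the digestion and PRP methods proprietary.

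Long-chain fatty acids reach fat from lipoproteins, whose triglyceride is split at the capillary wall by lipoprotein lipase. CD36 and the transport protein FATP1, encoded by SLC27A1, promote their entry into cells, and ACSL1 joins them to coenzyme A, which traps them inside. The binding proteins carry them in the cytosol. FABP4 is the form of fat cells, capillary endothelium and macrophages, FABP5 is shared by skin, macrophages and other cells, and FABP3 is best known from heart and skeletal muscle.

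Values are log2 expression levels over 32391 features, in which 1 unit is a 2-fold difference. Array medians lay between 6.76 and 6.85 in dogs 2 and 3 and between 5.14 and 5.31 in the company arrays, so levels were compared only within each set. Replicate arrays differed by a root mean square of 0.347 to 0.365 log2 units over genes in 3 groups and by 0.516 in dog 3 PRP. Of the stromal markers, DCN, a matrix proteoglycan, lay between 12.60 and 13.66 on all 11 arrays, while PI16 was as low as 6.51 in company B. Fat cell markers were also high in untreated SVF of both dogs (ADIPOQ, the hormone adiponectin, between 11.38 and 12.73). On the company arrays, whose scale is not compared with this, ADIPOQ lay between 5.40 and 6.85, above the median of each array. The mean of the 15 measured adipocyte markers lay below that median on each. It was 4.60 in company B (median 5.14), 5.18 in company C (5.25) and 4.82 in company A (5.31). The small number of arrays limits the precision of every value.

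The first comparison asked what PRP with incubation did to the fatty acid genes. None of the 5 genes passed the test. In limma, with adjusted p over all features, 0.00617% of features were called (2 of 32391, and 0 with the replicate number as a block or with any 1 array left out), and adjusted p for the 5 genes lay between 0.385 and 0.956. At an unadjusted p below 0.05 stood 2 of the 5, FABP3 and SLC27A1, where 9.45% of all features did. Of the 5 means, 4 lay below those of SVF, with a median difference of -0.16 over the 5 genes, against -0.031 over all features. In bulk samples, fewer cells of a type and less RNA per cell cannot be told apart.

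FABP3 differed most. In dog 2 its level was 8.50 and 8.23 on the PRP arrays, against 7.73 and 7.27 on the SVF arrays. In dog 3 it was 8.79 and 9.00 on the PRP arrays, against 8.61 and 8.27 on the SVF arrays. In neither dog did the conditions overlap, with PRP on the upper side, an arrangement found for 4.21% of all features. The mean difference was 0.66 ± 0.16 log2 units (SE, 95% interval 0.27 to 1.04), or 1.58-fold, and it did not pass (limma, adjusted p = 0.385). Same-numbered arrays differed by 0.77 and 0.96 in dog 2 and by 0.17 and 0.73 in dog 3. Across the 4 groups dog 3 PRP had the highest mean and dog 2 SVF the lowest. The arrays of dog 2 PRP and dog 3 SVF, between them in that order, overlapped.

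FABP5 was spread widely between replicates in every group but dog 3 SVF. In dog 2 its level was 7.33 and 6.41 after PRP, against 7.81 and 6.69 in SVF. In dog 3 it was 6.78 and 5.96 after PRP, against 6.70 and 6.74 in SVF. The PRP and SVF arrays overlapped in both dogs, and so did every pair of neighbours when the 4 groups were ordered by mean. These levels lie around the medians of the arrays, and the mean difference was -0.36 ± 0.32 (SE, 95% interval -1.12 to 0.39, limma, adjusted p = 0.733).

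CD36, the scavenger receptor that binds fatty acids and oxidised lipoproteins, was among the brightest features, above 99.5% of all features by its mean over the 8 arrays. In dog 2 it stood at 13.36 and 13.31 after PRP, against 13.40 and 13.34 in SVF. In dog 3 it stood at 12.68 and 12.41 after PRP, against 12.55 and 12.58 in SVF. Within each dog the conditions overlapped. The mean difference was -0.027 ± 0.12 (SE, 95% interval -0.31 to 0.26, limma, adjusted p = 0.956), and it was 0.047 with each array centred on its median.

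SLC27A1 lay lower after PRP in both dogs without passing the test. Its level was 7.71 and 7.40 in dog 2 PRP, against 7.98 and 8.12 in dog 2 SVF. In dog 3 it was 7.87 and 7.44 after PRP, against 8.17 and 8.20 in SVF. Both PRP arrays lay below both SVF arrays in each dog, as for 8.21% of all features. The mean difference was -0.51 ± 0.15 (SE, 95% interval -0.86 to -0.16), and adjusted p was 0.438 (limma). The difference was -0.26 and -0.30 between the number 1 arrays of dogs 2 and 3, and -0.72 and -0.76 between the number 2 arrays. Among neighbours in the order of the 4 means, only dog 3 PRP and dog 2 PRP overlapped.

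ACSL1, the main acyl-CoA synthetase of fat cells, was at 9.96 and 10.08 in dog 2 PRP, against 10.55 and 10.10 in dog 2 SVF. In dog 3 it was at 9.74 and 10.00 after PRP, against 9.90 and 9.87 in SVF. The conditions overlapped in dog 3, and in dog 2 the lowest SVF array lay just above the highest PRP array. The mean difference was -0.16 ± 0.15 (SE, 95% interval -0.50 to 0.18, limma, adjusted p = 0.734).

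**Figure D1:**
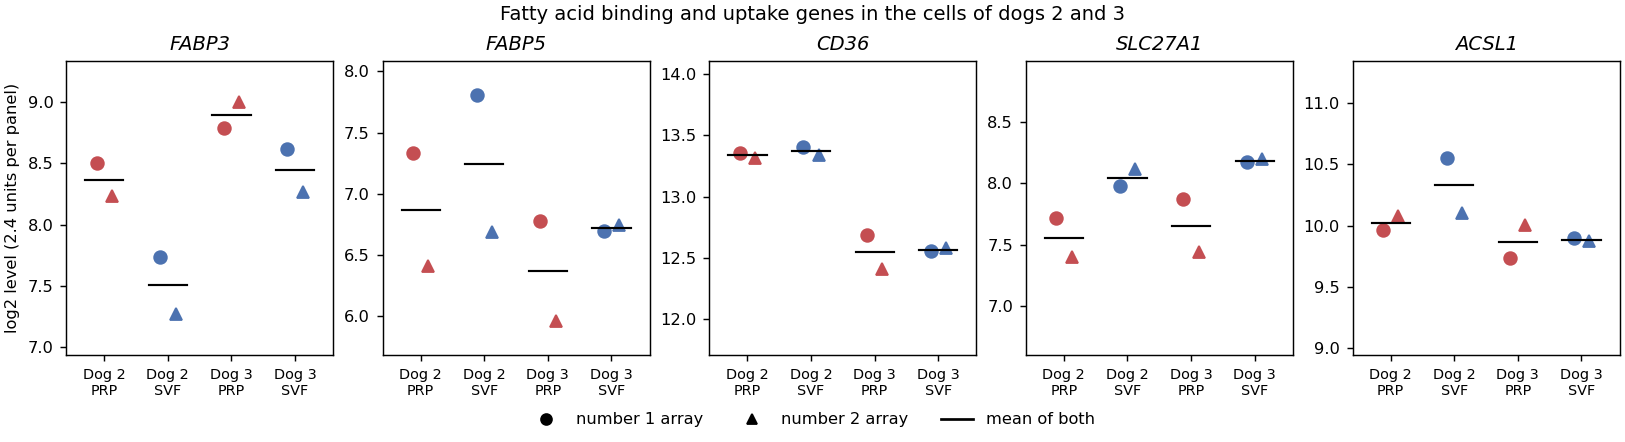
Levels of the 5 genes on the 8 arrays of dogs 2 and 3 (log2 scale, 2.4 units in each panel), with 1 point per array, the number 1 array as a circle and the number 2 array as a triangle, and a line at the mean of both. FABP3 points after PRP lie above those of SVF in each dog and SLC27A1 points lie below them, while CD36 separates the dogs and not the conditions.

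The differences from all 4 same-numbered pairs, set beside the mean of both dogs, show how far each gene's arrays agreed. FABP3 was positive and SLC27A1 negative in every pair. FABP5 and CD36 were each positive in the number 1 pair of dog 3 (0.077 and 0.13) and negative in the other pairs. ACSL1 was positive in the number 2 pair of dog 3 alone (0.13).

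**Figure D2:**
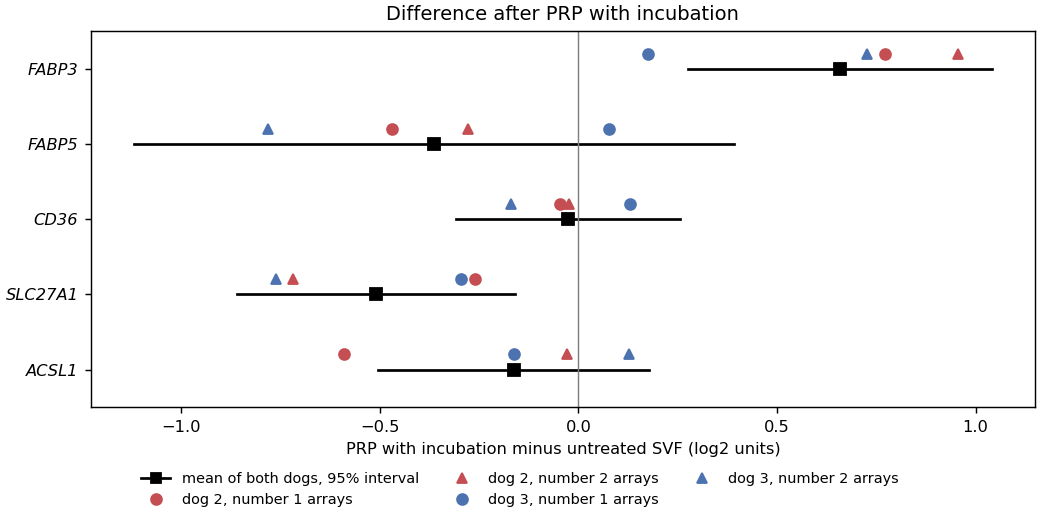
PRP with incubation minus untreated SVF for each gene, in log2 units. Squares and bars give the mean of both dogs with its 95% interval, without adjustment for the number of features, and coloured points give the same-numbered arrays of dog 2 and dog 3. The intervals of FABP3 (0.27 to 1.04) and SLC27A1 (-0.86 to -0.16) lie to one side of 0 and those of the other genes cross it.

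Markers of other cell types were set beside these values. Over all features, 55.7% had lower means after PRP. Of 15 measured adipocyte markers, 15 had lower means after PRP (median -0.58), 10 of them at an unadjusted p below 0.05, and 0 passed the test. Their mean level lay between 10.19 and 10.34 in dog 2 PRP, against 10.57 to 10.83 in dog 2 SVF, and between 8.62 and 9.04 in dog 3 PRP, against 9.64 to 9.93 in dog 3 SVF. Endothelial markers had lower means in 15 of 18 (median -0.30), 2 of them at an unadjusted p below 0.05, where 6.58% of all features were, and 0 passed. Their mean levels were 10.20 to 10.33 in dog 2 PRP, against 10.21 to 10.53 in dog 2 SVF, and 8.39 to 8.81 in dog 3 PRP, against 8.98 to 9.09 in dog 3 SVF. Macrophage and monocyte markers had higher means in 14 of 18 (median 0.24, 0 at an unadjusted p below 0.05), at 9.36 to 10.17 in dog 2 PRP, against 8.91 to 9.83 in dog 2 SVF, and at 9.85 to 10.08 in dog 3 PRP, against 9.66 to 10.10 in dog 3 SVF. Of 7 platelet markers, 5 had higher means (median 0.12) and 1, the platelet chemokine gene PPBP, passed. Their mean level was 7.39 to 7.55 in dog 2 PRP, against 6.85 to 6.87 in dog 2 SVF, and 6.89 to 7.07 in dog 3 PRP, against 6.57 to 6.68 in dog 3 SVF. The part of these cells in the levels of FABP3 and SLC27A1 was not tested.

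Of 48 other measured genes of fatty acid supply, binding, activation and oxidation, 0 passed in either direction. Means were higher after PRP in 15 and lower in 33, with a median of -0.11. At an unadjusted p below 0.05 there were 0 higher genes, where 2.87% of all features were higher, and 4 lower genes, where 6.58% were lower. With the smallest p among the lower genes were PPARA, the receptor that switches on fatty acid oxidation (-0.60 ± 0.18), CAVIN1, a coat protein of caveolae (-0.57 ± 0.18), and CPT1B, the muscle form of the enzyme that admits fatty acids to mitochondria (-0.46 ± 0.16, SE). Their adjusted p values were 0.446, 0.462 and 0.472 (limma). The fourth, named for completeness, was SLC27A3, a relative of SLC27A1, at -0.59 ± 0.23 (adjusted p = 0.506). With the smallest p among the higher genes were ACSL3, an acyl-CoA synthetase (0.32 ± 0.14), the transporter SLC27A6 (1.15 ± 0.53) and ZDHHC5, which attaches fatty acids to CD36 (0.32 ± 0.15, SE), with adjusted p of 0.531, 0.539 and 0.542 (limma). SLC27A6 stood at 9.86 on the number 2 array of dog 3 PRP and between 5.98 and 7.53 on the other 7 arrays. LPL, the lipoprotein lipase that supplies the fatty acids, differed by -0.030 ± 0.13 (SE, limma, adjusted p = 0.956).

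The response of both dogs was then compared. The test of the difference between their effects called 0 of the 5 genes and 0 of 32391 features (0%), with 1.91% of features and 0 of the 5 genes at an unadjusted p below 0.05. Effects in dog 2 minus effects in dog 3 ran from -0.29 for ACSL1 to 0.41 for FABP3, with SEs of 0.29 and 0.33.

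Between untreated cells of dogs 2 and 3, 0 of 5 genes passed, where 1.28% of all features did. The means of FABP3 and CD36 lay farthest apart. CD36 averaged 13.37 ± 0.048 in dog 2 SVF and 12.57 ± 0.017 in dog 3 SVF (SD, n = 2 each), a difference of 0.80 ± 0.17 (SE), or 1.75-fold (limma, adjusted p = 0.0826). FABP3 averaged 7.50 ± 0.32 in dog 2 SVF and 8.44 ± 0.24 in dog 3 SVF (SD, n = 2 each), a difference of -0.94 ± 0.23 (SE, limma, adjusted p = 0.122). Neither gene's arrays overlapped between the dogs. Those of ACSL1 did not either, nor narrowly those of SLC27A1 (up to 8.12 in dog 2, from 8.17 in dog 3), while those of FABP5 did. The share of all features arranged in this way was not counted, so nothing particular to these genes can be read from it. CD36 and FABP3 were the 2 genes at an unadjusted p below 0.05, where 11.7% of all features were. ACSL1 (0.44 ± 0.21), FABP5 (0.52 ± 0.46) and SLC27A1 (-0.14 ± 0.21, SE) had adjusted p of 0.485, 0.811 and 0.926 (limma). The dog and its tissue preparation cannot be told apart.

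Among the 48 other fatty acid genes, 2 were higher in untreated cells of dog 2 and 0 were lower. They were SCARB1, a lipoprotein receptor related to CD36 (1.36, adjusted p = 0.0288), and PPARG, the nuclear receptor that drives fat cell formation (1.30, limma, adjusted p = 0.0382), both named because the count rests on them. Endothelial markers differed in the same direction as CD36, with 7 of 18 higher in dog 2 and 0 lower (median 1.36), where 0.568% of all features were higher and 0.71% lower. Their mean level lay between 10.21 and 10.53 in dog 2 SVF, against 8.98 to 9.09 in dog 3 SVF, and PECAM1, the endothelial adhesion molecule, stood at 12.69 and 12.80 in dog 2, against 11.73 and 11.62 in dog 3. Of 15 adipocyte markers, 3 were higher in dog 2 and 0 lower (median 1.03). Macrophage and monocyte markers had 0 of 18 called (median -0.47), and of 16 stromal markers 1 was lower in dog 2 (median -0.38). The part of these cells in the CD36 and FABP3 levels was not tested.

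The thawed cells of the Labrador were compared between the companies. The portion of fat, its digestion, its freezing and the array cannot be told apart in these comparisons. In company B, 3 of the 5 genes lay at least 2-fold from both other companies. Company B stood apart for FABP3 and CD36, which lay within 2-fold between companies C and A. FABP5, dim in companies B and C, was lower in company C than in company A as well. FABP3 was 22.0-fold higher in company B than in company A, and CD36 was 20.3-fold lower. With 1 array per company there is no replicate and no test, so a difference of at least 2-fold is given as a description of these arrays. Between company B and company A, 12.3% of all features differed by at least 2-fold (4.14% higher and 8.13% lower in B), and between company B and company C 11.3% did (4.22% higher and 7.07% lower). Between company C and company A it was 5.54% (2.11% higher and 3.43% lower).

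FABP3 stood at 12.31 in company B, against 7.24 in company C and 7.85 in company A. The level in company B was above 99.5% of features on that array. The log2 difference was 4.46 against company A and 5.07, or 33.5-fold, against company C. Among 15947 genes these were the second highest difference of B over A and the highest of B over C. The ranks only describe these arrays, since such differences were known when the set was drawn up. Company C lay 0.61 below company A, within 2-fold. Markers of skeletal and cardiac muscle, where FABP3 is best known, had a mean level of 3.85 in company B, against 3.83 in company C and 3.95 in company A. Of these 13 markers, 7 had one value on all 3 arrays, among them MYH7, the myosin of slow and cardiac muscle, and MB, myoglobin, so no difference between companies can be read from those 7. Their part in the FABP3 level was not tested.

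CD36 stood at 5.78 in company B, against 10.19 in company C and 10.13 in company A. Companies C and A differed by 0.062 log2 units. The difference was -4.35 for company B against company A and -4.41, or 21.2-fold lower, against company C. FABP5 was at 2.23 in company B, against 4.12 in company C and 5.79 in company A. The level in company B lay below the lower quartile of that array (3.57) and that in company C below its array's median (5.25), so no size of difference is given for this gene.

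SLC27A1 had the same value, 5.48, on all 3 company arrays, and ACSL1 likewise 7.70. Identical values on the 3 arrays were found for 29.5% of all features. No comparison between companies was drawn for these 2 genes.

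**Figure D3:**
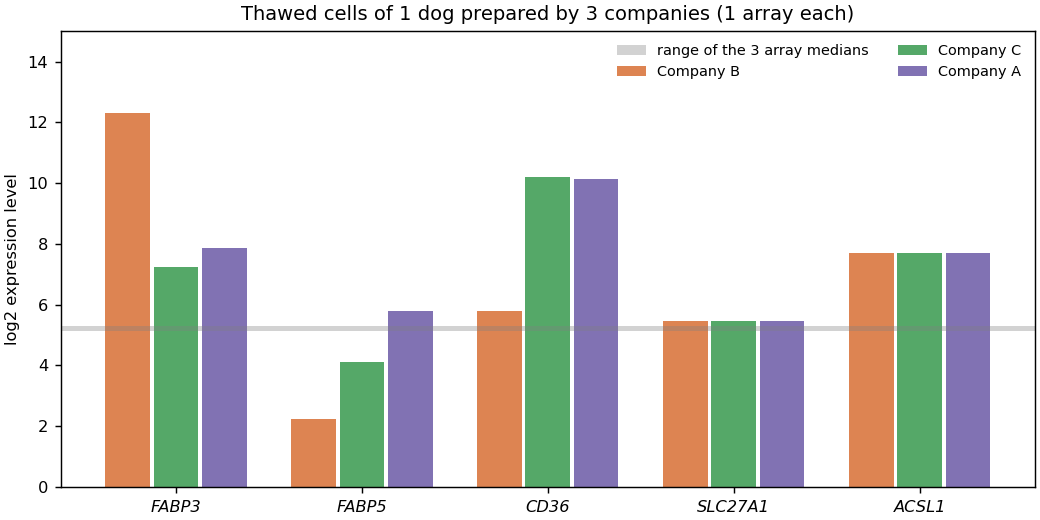
Levels of the 5 genes in thawed cells of 1 dog, prepared by companies B, C and A (log2 scale, 1 array each, no replicates), with the range of the 3 array medians as a grey band. FABP3 is highest in company B (12.31), FABP5 and CD36 are lowest there (2.23 and 5.78), and SLC27A1 and ACSL1 have one value throughout.

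Counts among the other fatty acid genes are set beside the shares of all features, as a description. Of 48, 4 were at least 2-fold higher in company B than in company A, where 4.14% of all features were, and 5 were lower, where 8.13% were. Another 14 had identical values on the 3 arrays. The differences farthest from 0 were those of PDK4, the kinase that spares glucose when fatty acids are burned, at 3.58 in company B, against 10.72 in company C and 10.89 in company A, and of LPL, at 5.33 in company B, against 9.07 in company C and 9.48 in company A (17.7-fold lower in B than in A, and 13.3-fold lower than in C). The PDK4 level in company B lay just above that array's lower quartile (3.57), so the size of its difference is uncertain. The remaining genes of that count are named after their values were seen. Lower in company B than in company A were ANGPTL4, an inhibitor of lipoprotein lipase (-2.07), PPARG (-2.44) and SLC27A6 (-1.28). Higher in B were PPARD, the widely expressed PPAR (1.62), RBP4, the retinol carrier (1.62), CAV1, the core protein of caveolae (1.34), and GOT2, a mitochondrial aminotransferase also described as a fatty acid binding protein of the plasma membrane (1.02). PPARG stood at 5.39 in company B, against 7.25 in company C and 7.83 in company A, and PPARD at 8.14 in company B, against 6.64 in company C and 6.52 in company A.

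Against company C, 3 of the 48 were higher in company B, where 4.22% of all features were, and 5 were lower, where 7.07% were. The higher genes were PPARD, CPT2, the inner partner of CPT1 in mitochondria (1.09), and RBP4 (1.02). The lower genes were PDK4 (-7.13), LPL (-3.73), ANGPTL4 (-2.96), PPARG (-1.86) and GPIHBP1, which anchors lipoprotein lipase to capillaries. GPIHBP1 was dim, at 3.55 in company B, below that array's lower quartile (3.57), and at 5.01 in company C, below its array's median (5.25). No size of difference is given for it. That of PDK4 is uncertain, since its level in company B lay just above the same quartile. Between company C and company A 0 of the 48 differed by 2-fold. Among those above the array median on the brighter array, the genes farthest apart were ANGPTL4 (0.89) and LMF1, which helps lipoprotein lipase to fold (0.69).

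Most macrophage and leukocyte markers were low in company B together with CD36, and smaller parts of the endothelial and stromal lists were. The median of company B minus company A was -0.25 for endothelial and -0.60 for stromal markers. Against company C these medians were -0.48 and -0.47. Of 18 macrophage and monocyte markers, 13 lay at least 2-fold below both other companies, as did 5.2% of all features, and their mean level was 5.67 in company B, against 7.74 in company C and 7.66 in company A. Of 7 markers shared by leukocytes, 5 lay below both, and PTPRC, the common leukocyte antigen CD45, was at 3.37 in company B, against 8.36 in company C and 8.91 in company A. Of 18 endothelial markers, 5 lay below both, PECAM1 among them at 3.99 in company B, against 9.18 in company C and 8.62 in company A. The mean level of that list was 5.28 in company B, against 6.38 in company C and 6.10 in company A. Adipocyte markers lay below both in 1 of 15, with mean levels of 4.60 in company B, 5.18 in company C and 4.82 in company A. Stromal markers lay below both in 4 of 16 and above both in 1, as did 2.43% of all features, with mean levels of 10.13 in company B, 10.83 in company C and 10.76 in company A. Platelet markers averaged 5.06 in company B, 7.18 in company C and 5.07 in company A. The part of these cells in the levels of CD36, FABP5 and FABP3 was not tested.

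**Figure D4:**
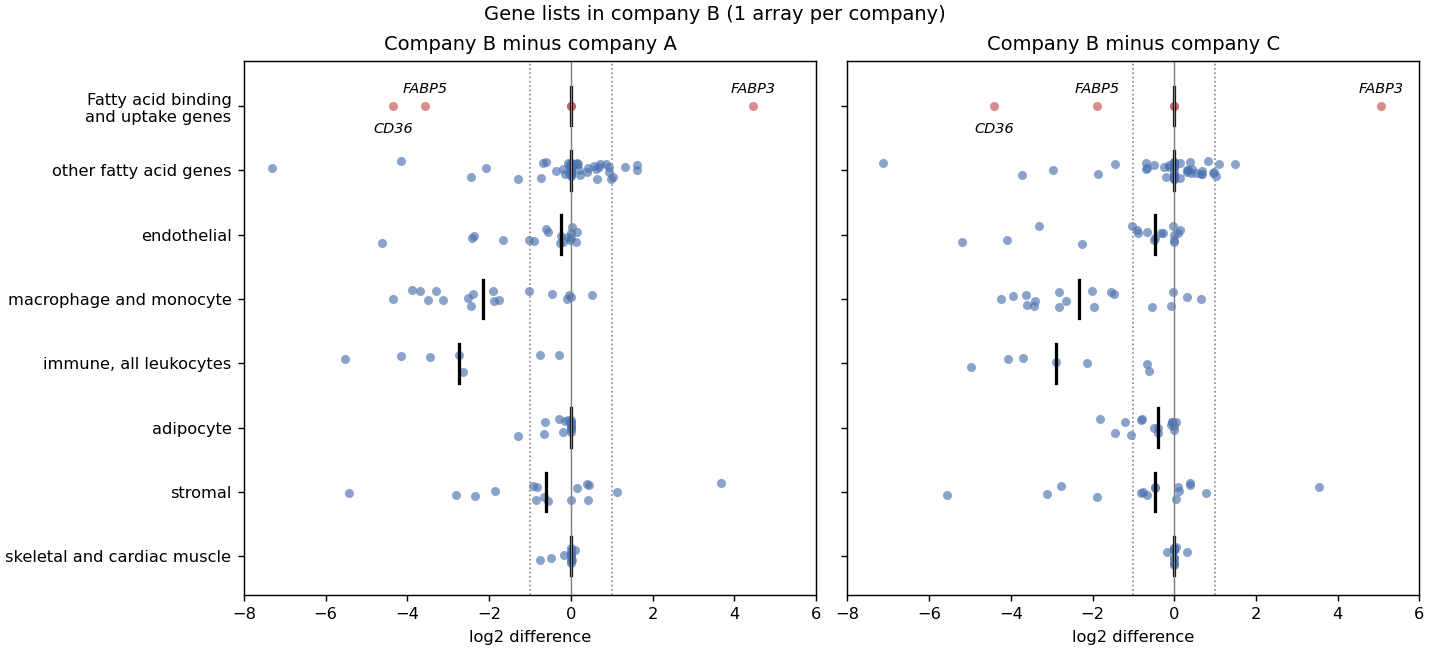
Log2 differences of company B from company A (left) and from company C (right), with 1 point per gene, a line at each list's median and dotted lines at 2-fold. FABP3 lies far to the right, and CD36 and FABP5 lie to the left, where most macrophage and leukocyte markers and the lowest of the other fatty acid genes (PDK4 at -7.31 against A) also fall. PDK4 and FABP5 were dim in company B, so the sizes of their differences are uncertain.

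Across the 8 arrays of dogs 2 and 3 the 5 genes did not follow one pattern. Pearson's r between pairs of them, given as a description over 8 arrays that share dogs and conditions, ran from -0.71 for FABP3 with CD36 to 0.62 for CD36 with ACSL1. SLC27A1 was nearly unrelated to ACSL1 (r = -0.032) and to CD36 (-0.10). FABP3 was negatively related to each of the other 4 genes (r between -0.71 and -0.42).

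Each gene was also matched to the genes most like it over the same 8 arrays, among 3730 genes above the median level with an SD of at least 0.3. So many candidates over 8 arrays give high r for any gene. FABP3 was most like FBXO33 (r = 0.998), POSTN, the matricellular protein periostin (0.992), and SERPINB8 (0.982). CD36 was most like FHL5 (0.997), SPATA13 (0.994) and ENPEP, an aminopeptidase (0.994). SLC27A1 was most like HEG1 (0.978), THBD, the endothelial anticoagulant thrombomodulin (0.975), and APBB3 (0.965). FABP5 was most like NDST2 (0.988), FMN1 (0.962) and POLL (0.952), and ACSL1 most like TMEM135 (0.945), ACACA, the enzyme that makes malonyl-CoA (0.928), and ASB2 (0.922). Of these 15 genes, 7 had one value on all 3 company arrays. Of the genes most like FABP3, POSTN was higher in company B than in company A, by 2.11 log2 units. SERPINB8 differed by -0.056 there, and FBXO33 had the same value on all 3 arrays. THBD was lower in company B (-1.45), while SLC27A1 itself had the same value on all 3 arrays.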

How the data were processed

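Biotin-labelled cRNA from 6 µg of total RNA per sample went onto Affymetrix arrays, the labels' protocols state. The log2 values were deposited by the authors and used unchanged. Their log scale was judged from their range. Partek is named per the submitters' processing notes. No source used here gives its version, the summarization, the normalization or the genome build of the array, and coordinates are left out. The platform annotation gives 1 gene for 16545 of 32391 features, several for 370 and none for 15476. All 5 genes matched their symbols in UU_Cfam_GSD_1.0 by gene identifier.

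Groups came from sample titles. The labels do not say whether both samples of a group were prepared separately. A p-value therefore measures the spread between arrays alone, which could be technical. In R 4.3.3, limma 3.58.1 fitted a mean for each of 4 groups to the 8 arrays (lmFit, eBayes, 4 residual degrees of freedom) without a filter, and p-values were adjusted by Benjamini-Hochberg across every feature and called below 0.05. The code was tested on simulated data. FABP4 was planned as a sixth gene, and it has no feature of its own. The genes and lists were chosen with earlier results of these data known. Named besides the 5 genes were the 3 list genes of smallest p per direction, the 2 farthest apart between companies, the 3 most alike, defining markers, and genes said to be named for a count. Genes outside this rule were chosen after their values were seen.

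Numbers 1 and 2 recur in all groups. Deviations of same-numbered arrays from their group means correlated at 0.230 within dog 2 and 0.160 within dog 3, above the 0.1 set for treating them as pairs, and at 0.165 to 0.399 across the dogs. The SEs, intervals and adjusted p-values given for the genes in the Results nevertheless come from the fit without pairs. The replicate block was run as an alternative. With it 0 features passed, and adjusted p for FABP5 was 0.369 in place of 0.733 (limma). Alternatives covered scaling, a filter on dim features, the model, the variance model and leaving out arrays.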

Additional observations from a re-analysis of the deposited data

How the results depend on the processing

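None of the 5 genes passed adjusted p 0.05 in the PRP comparison under any of 17 alternatives per gene (85 values). The sign of CD36 turned with arrays centred on their medians (0.047). When both number 2 PRP arrays were left out, which was decided after seeing the data, CD36 was 0.054, FABP5 0.071 and the median of the 5 genes 0.054. Leaving out 1 array at a time gave -0.096 to 0.042 for CD36 (0.042 without dog 3 PRP replicate 2), -0.27 to -0.052 for the median of the 5 genes, 0.54 to 0.77 for FABP3, -0.62 to -0.40 for SLC27A1, -0.27 to -0.052 for ACSL1 and, for FABP5, -0.64 (without dog 2 SVF replicate 2) to -0.084 (without dog 2 SVF replicate 1). For FABP5 in untreated cells of dog 2 minus dog 3 it gave -0.035 (without dog 2 SVF replicate 1) to 1.08. The count of features changed by PRP, 2 as reported, was 1 with the filter, the additive model or the replicate number as a term (added later), and 0 with the replicate block, without both number 2 PRP arrays and without any single array. With the replicate block the adjusted p was 0.255 for FABP3 and 0.269 for SLC27A1, and no call on the 5 genes changed. CD36 in dog 2 minus dog 3 had adjusted p between 0.0561 and 0.291. Between companies C and A 2 genes in place of 1 passed a 1.5-fold threshold, and no other count between companies changed. Averaging the features of a gene changed nothing, since each had 1. Signal over background was not measured for any gene.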

Other observations

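One feature (14373434) lists 2 genes, FABP4 and LOC100686507, so its signal cannot be assigned to either. Its level was 3.05 in company B, against 10.01 in company C and 9.62 in company A, and the level in B lay below that array's lower quartile (3.57). In dog 2 it was 12.25 and 12.48 after PRP, against 12.39 and 12.51 in SVF. In dog 3 it was 12.10 and 11.88 after PRP, against 11.90 and 12.22 in SVF. PRP minus SVF was -0.075 ± 0.14 (SE, limma, adjusted p = 0.880), and the arrays overlapped in both dogs.

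Stromal markers did not move together in company B. DPP4, a surface peptidase of fibroblast progenitors, stood at 11.31 in company B, against 7.76 in company C and 7.63 in company A, while PI16, another gene of such progenitors, stood at 6.51 in company B, against 12.09 in company C and 11.94 in company A. Both were chosen after their values were seen.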
